A study of Homo sapiens with 3 samples.

Results

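The ETS family is a set of transcription factors that share a winged helix-turn-helix DNA-binding domain, the ETS domain, which recognises DNA around the core GGAA. The genes described here are 10 members of this family other than ELK4: ELK1, ELK3, SPDEF, ELF3, EHF, ETV1, ETV4, ETV5, ERG and SPIC. They were taken by name, as family members whose probe set names no other gene, with earlier results of these data known, and each had 1 such probe set. They are 10 of the 18417 genes that the array measured by probe sets naming 1 gene, and of the 29 ETS family genes listed.

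The samples were LNCaP cells, an established androgen-responsive cell line from a metastasis of a human prostate carcinoma, transfected with siRNA and harvested 72 hours later. The arrays titled siSE1 and siSE2 (1 each) carried siRNAs against SLC45A3-ELK4, and the control array carried a negative control siRNA, named siGl2 in the series text. SLC45A3-ELK4 is a chimeric transcript of the neighbouring genes SLC45A3, a prostate transporter gene, and ELK4, itself an ETS factor. The transfection field of the array titled siSE2 names siSE1, so the arrays may be repeats of 1 siRNA. Nothing in the labels ties the 3 arrays to separate cultures, and the p-values then cover only the scatter among these arrays, which may be technical.

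ETS factors act mostly with partners and under kinase control. ELK1, ELK3 and ELK4 are the ternary complex factors, which bind with serum response factor (SRF) at immediate early gene promoters and are phosphorylated by ERK. ETV1, ETV4 and ETV5 form the PEA3 group, which ERK signalling also drives. In prostate cancer, rearrangements place ERG or a PEA3 group gene under promoters of prostate-expressed genes such as TMPRSS2 and SLC45A3. SPDEF, ELF3 and EHF are factors of secretory epithelium, and SPIC is a lineage factor of splenic red pulp macrophages, as known from mice.

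Promoter sequence of 3 members is shown because the ETS core is what the protein encoded by ELK4 would read, and these genes include the largest differences in each direction. Each line gives the 250 bases before the gene start from RefSeq (build GRCh38.p14), 5′ to 3′ on the gene's strand. Capitals mark the ETS core, GGAA, or TTCC where the core lies on the opposite strand. The windows are chr12:101475086-101475335 (+) for SPIC, chr6:34556330-34556579 (-) for SPDEF and chr1:202010337-202010586 (+) for ELF3.
SPIC: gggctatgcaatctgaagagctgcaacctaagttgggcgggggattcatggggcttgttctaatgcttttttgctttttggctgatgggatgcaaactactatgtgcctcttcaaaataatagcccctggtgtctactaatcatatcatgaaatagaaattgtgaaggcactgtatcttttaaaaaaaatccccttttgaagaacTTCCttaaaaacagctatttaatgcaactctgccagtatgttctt
SPDEF: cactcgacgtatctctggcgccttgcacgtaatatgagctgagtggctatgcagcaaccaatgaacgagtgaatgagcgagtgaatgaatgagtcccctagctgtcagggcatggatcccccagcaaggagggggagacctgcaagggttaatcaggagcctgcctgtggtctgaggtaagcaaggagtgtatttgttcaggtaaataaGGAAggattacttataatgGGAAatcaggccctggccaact
ELF3: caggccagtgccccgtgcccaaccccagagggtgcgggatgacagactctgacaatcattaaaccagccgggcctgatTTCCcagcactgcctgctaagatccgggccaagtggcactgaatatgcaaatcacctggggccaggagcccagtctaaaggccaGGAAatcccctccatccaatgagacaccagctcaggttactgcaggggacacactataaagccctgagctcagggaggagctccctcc
The SPIC window held 1 core, on the opposite strand and 41 bases from the start. The SPDEF window held 2, both on the gene's strand, and the ELF3 window held 2, 1 on each strand. Among 35114 such windows of RefSeq genes, 92.7% held at least 1 core, with a median of 3, so holding a core does not set these genes apart. The longer ETS site CCGGAAGT, which contains the core, was searched on both strands. It was in 0 of the windows of the 8 members with a RefSeq entry, in the ELK4 window, and in 3.42% of all windows. The CArG box, which SRF binds, was also searched on both strands. It was in 0 of the members' windows and in 1.16% of all windows. ETV4 and ETV5 had no window to search. A match is a run of letters, not a measured binding site.

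Values are log2 intensities summarised by the authors. A gene was tested when its mean over the 3 arrays reached 5.12, the 30th percentile of all genes. Of the 10 ETS factors, 6 were tested (ELK1, ELK3, SPDEF, ELF3, EHF and SPIC), and ETV1, ETV4, ETV5 and ERG lay below this filter. Both siRNA arrays together were set against the control in 1 limma fit over 12892 genes, with Benjamini-Hochberg adjustment. None of the 6 passed at an adjusted p of 0.05 (0 of 6), in a comparison that called 0.962% of all genes tested, 0.248% higher and 0.714% lower. At an unadjusted limma p of 0.05, 1 of the 6 (16.7%) passed, SPIC, against 17.8% of all genes tested. By size alone, SPIC was also the 1 of the 6 past 1.5-fold in 1 direction with both siRNAs, a rule met by 2.11% of all genes (0.582% higher and 1.53% lower).

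**Figure D1:**
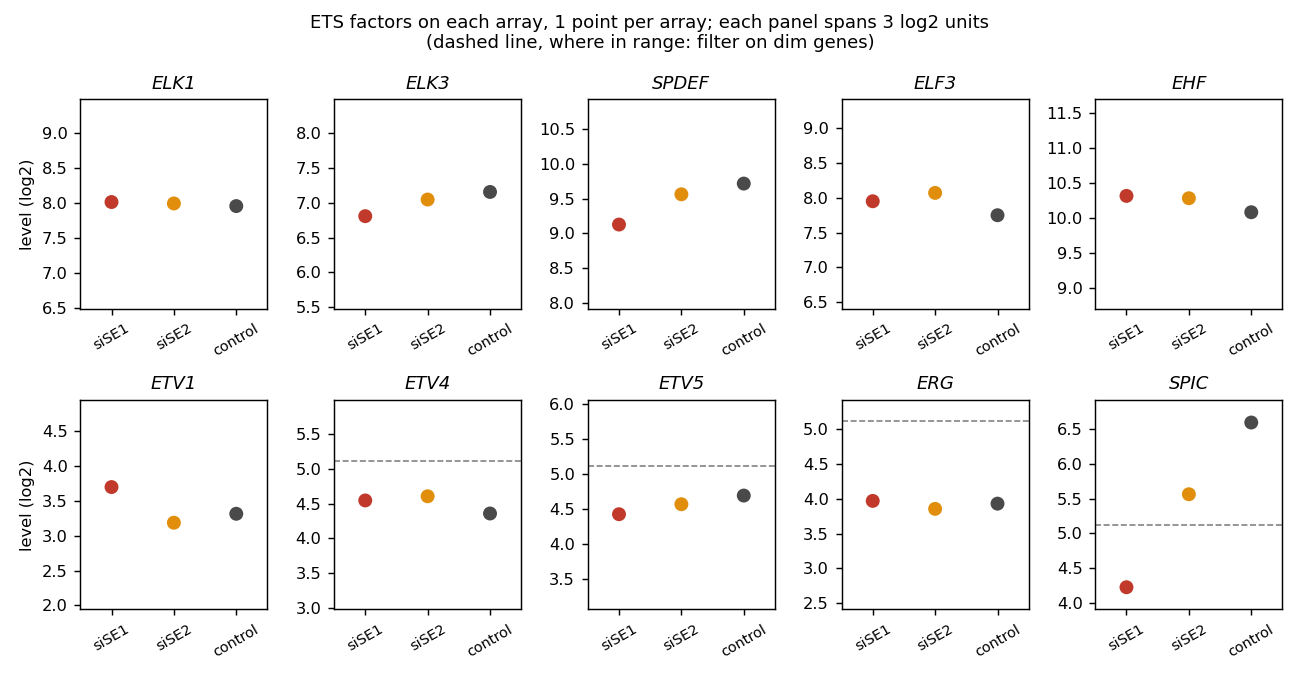
Log2 level of each of the 10 ETS factors on the siSE1, siSE2 and control arrays, 1 point per array, in panels that each span 3 log2 units. SPIC spreads from 4.23 to 6.59, and the other genes lie within 0.59 of their control value.

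Of the ternary complex factors, ELK1 read nearly the same on the 3 arrays and ELK3 read lower with the siRNAs. ELK1 read 8.02 with siSE1 and 7.996 with siSE2, against 7.96 on the control array. Its mean difference was 0.05 ± 0.14 (log2, SE, n = 2 against 1; limma, adjusted p = 0.892). Both siRNA arrays lay within 0.06 of the control array, and the 95% interval of the mean, -0.27 to 0.36, leaves room for levels from 0.83 to 1.29 times the control. ELK3, which can repress transcription until ERK phosphorylates it, read 6.81 with siSE1 and 7.05 with siSE2, against 7.15 on the control array. Its difference was -0.23 ± 0.16 (SE; limma, adjusted p = 0.479), with an interval of -0.58 to 0.12. ELK3 was lower on both siRNA arrays, and siSE1 lay farther from siSE2 than siSE2 did from the control. ELK4, the family member that contributes to the targeted transcript, read 8.45 with siSE1 and 8.20 with siSE2, against 8.50 on the control array. ELK4 did not pass (-0.18 ± 0.16, SE; limma, adjusted p = 0.582). Whether its probe set also reads the chimeric transcript was not tested.

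The epithelial factors differed from the control in opposite directions: SPDEF read lower and ELF3 and EHF higher with both siRNAs, and none passed. SPDEF, a factor of luminal prostate and goblet cells, read 9.13 with siSE1 and 9.56 with siSE2, against 9.71 on the control array. Its mean difference was -0.37 ± 0.19 (SE; limma, adjusted p = 0.332), with an interval of -0.79 to 0.05. The siSE1 array alone stood well below the control, since siSE2 differed from it by -0.15. ELF3, which drives epithelial differentiation genes, read 7.95 with siSE1 and 8.07 with siSE2, against 7.75 on the control array. The difference was 0.26 ± 0.14 (SE; limma, adjusted p = 0.381), with an interval of -0.06 to 0.59. EHF, the closest relative of ELF3 in this set, read 10.32 with siSE1 and 10.28 with siSE2, against 10.08 on the control array (0.22 ± 0.14, SE; limma, adjusted p = 0.455). The siRNA arrays read close to each other for EHF, 0.03 apart, and its interval of -0.10 to 0.53 spans 0.93 to 1.45 times the control. In RNA from whole cultures, fewer cells of a kind and less RNA per cell cannot be told apart.

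SPIC had the largest difference among the 10 ETS factors. It read 4.23 with siSE1 and 5.56 with siSE2, against 6.59 on the control array. Both siRNA arrays lay below the control, with differences of -2.36 and -1.03 (log2) in the same order, and siSE1 minus siSE2 was -1.33. The mean difference of -1.70 ± 0.40 (SE) corresponds to 3.24-fold, with a 95% interval of -2.60 to -0.79. It did not pass over all genes (limma, adjusted p = 0.0788; unadjusted p = 0.00199). By this mean 1 of the 12892 genes tested was lower, and by the distance between siSE1 and siSE2 only 3, SPIC among them, lay as far apart. The SE of SPIC is accordingly wide, against a median of 0.14 over all genes tested. SPIC entered the test through its control and siSE2 values, since its siSE1 value lies below the filter and its mean was 5.46. Across the alternatives its adjusted p ran from 0.0429, with array medians equalised over genes, to 0.362, with a robust variance prior.

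**Figure D2:**
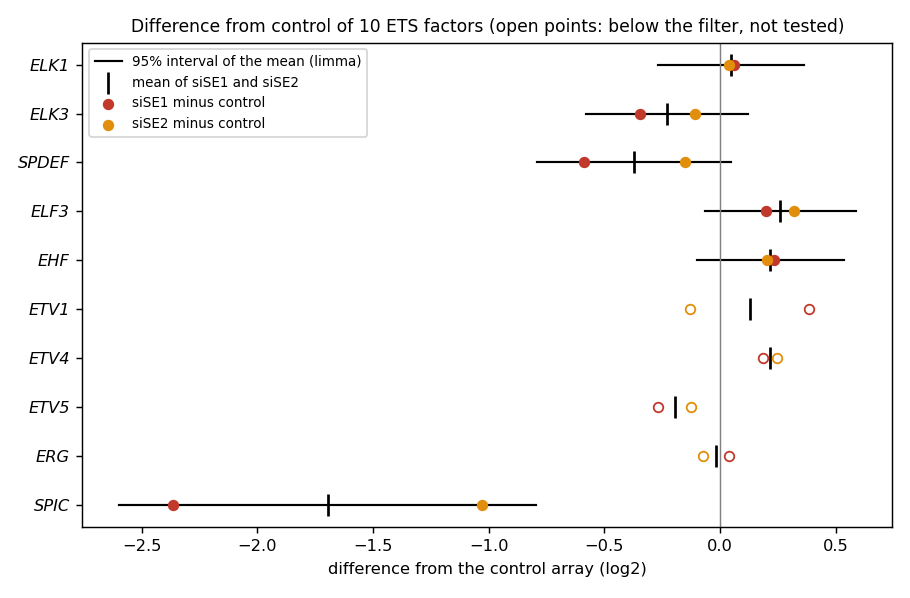
Difference from the control array (log2) of the 10 ETS factors, with a point for each siRNA, a bar for their mean and, for the 6 tested, the 95% interval from limma. The interval of SPIC, -2.60 to -0.79, lies below 0, and the other 5 intervals include 0.

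The PEA3 group genes and ERG, which recombine in prostate cancer, read below the filter on all 3 arrays. ETV1 read 3.70 with siSE1 and 3.19 with siSE2, against 3.32 on the control array, which lay between the siRNA arrays. ETV4 read 4.55 with siSE1 and 4.61 with siSE2, against 4.36 on the control array. ETV5 read 4.43 with siSE1 and 4.57 with siSE2, against 4.69 on the control array. The mean differences of ETV1, ETV4 and ETV5 were 0.13, 0.22 and -0.20 (log2), with no common direction in the group. ERG, a factor of endothelium and blood stem cells, read 3.97 with siSE1 and 3.85 with siSE2, against 3.93 on the control array, again between the siRNA arrays. With no filter these 4 genes were tested too, and their limma adjusted p ran from 0.513 for ETV4 to 0.966 for ERG. LNCaP cells are known for a rearrangement that brings ETV1 into the MIPOL1 locus. Here the ETV1 probe set was dim on every array, while MIPOL1 read 7.93 with siSE1 and 8.20 with siSE2, against 7.81 on the control array (MIPOL1 is named outside the rule for named genes). How well the ETV1 probe set reports transcripts of that locus was not tested, and probe sets of different genes cannot be compared in level.

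Markers of luminal prostate cells, which LNCaP cells are known to resemble, were measured on all 3 arrays. All 6 with their own probe set passed the filter, as did 70.0% of all genes, and 0 of them rose or fell, with 3 above the control and 3 below. KLK3, the gene of prostate-specific antigen, read 9.59 with siSE1 and 9.71 with siSE2, against 10.04 on the control array. The luminal keratin genes KRT8 and KRT18 differed the other way, by 0.43 ± 0.14 and 0.42 ± 0.15 (SE; limma, adjusted p = 0.173 and 0.189). Of the basal markers 3 of 5 passed the filter, and of the fibroblast markers 4 of 6. Of the endothelial markers, whose cell type uses ERG, 5 of 6 lay below the filter. Of the blood and macrophage markers, whose cells use SPIC and SPI1, 4 of 7 lay below it. Their summed linear level was 367 with siSE1 and 350 with siSE2, against 285 on the control array. The other non-luminal lists also summed higher with both siRNAs. These sums were 260 and 268 against 233 on the control array for basal and 178 and 177 against 154 for endothelial markers. For fibroblast markers they were 288 and 277 against 266. The luminal markers summed lower with both siRNAs, 7635 and 7960 against 8174 on the control array. STEAP2, the brightest of these 6 on every array, weighs most in the luminal sum. It read 11.26 with siSE1 and 11.55 with siSE2, against 11.76 on the control array. With 3 of the 6 above the control, the lower sum does not stand for the luminal list as a whole. Each sum but the luminal one includes markers below the filter. Over all genes the median difference was -0.05 with the filter at the 50th percentile, -0.02 with the filter used and 0.01 with none. Dim genes as a class thus read somewhat higher with the siRNAs, and the part of this in the sums was not tested. Not every blood and macrophage marker lay above the control with both siRNAs. LYZ, the lysozyme gene, differed most in the blood and macrophage list, with 6.09 and 5.11 against 4.41 on the control array (limma, adjusted p = 0.0989). LYZ entered the test through its siSE1 value alone, since its siSE2 and control values lie below the filter. The part of these markers in the SPIC difference was not tested.

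The siSE1 and siSE2 arrays differed from each other for few of these genes. SPIC was the 1 of the 6 tested ETS factors whose siSE1 and siSE2 values lay at least 1.5-fold apart, which 1.16% of all genes did. SPDEF lay 0.43 lower with siSE1 than with siSE2 and ELK3 0.24 lower, while ELK1, ELF3 and EHF lay within 0.12. With 1 array under each title these distances have no test. As the arrays may be repeats of 1 siRNA, a distance between them cannot be assigned to a difference between siRNAs. All differences share the 1 control array, so siSE1 and siSE2 are not independent of each other in direction.

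Genes most like a member in pattern were taken as those at the shortest distance in the pair of differences (siSE1 and siSE2, each minus control, over 3 arrays). Nearest to SPIC were GINS1, a replicative helicase subunit gene, at 0.57 and TMEM38B, a cation channel gene of the endoplasmic reticulum, at 0.69. GINS1 differed by -2.05 with siSE1 and -0.56 with siSE2, and TMEM38B by -1.73 and -0.75. No gene lay within 0.1 of SPIC (0 of the genes tested). Within 0.1 of SPDEF lay 91 genes, nearest COMMD9 and LRRC28, and within 0.1 of ELF3 lay 456, nearest SAXO4 and CAMK2A.

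None of the other ETS family genes tested passed. Of 19 listed, 17 were measured by a probe set of their own, 13 were tested, and 0 rose or fell (limma, adjusted p from 0.150 to 0.989; 1 had an unadjusted p under 0.05). Their median difference was -0.05 (log2), beside -0.02 over all genes tested and -0.09 over the 6 tested ETS factors above. SPIB, the relative of SPIC that acts in B cells and in gut M cells, read 5.65 with siSE1 and 5.55 with siSE2, against 5.15 on the control array (0.45 ± 0.14, SE; limma, adjusted p = 0.150). SPI1, the third gene of this subfamily, differed by 0.08 with siSE1 and by 0.00 with siSE2. SPIC was thus the one of the 3 with values below the control. ELF1, ELF2 and ELF4, which form a subfamily with roles in lymphoid cells, differed by -0.39, -0.26 and -0.31. ELF1 differed by -0.66 with siSE1 and -0.11 with siSE2, and ELF2 by -0.37 and -0.14. ELF4 read 6.64 and 6.69 with the siRNAs, against 6.97 on the control array (limma, adjusted p = 0.296). ETV2, a factor of blood vessel development, differed by 0.24 ± 0.14 (SE; limma, adjusted p = 0.412). ELF1 and SPI1 are named outside the rule for named genes, after their values were seen.

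**Figure D3:**
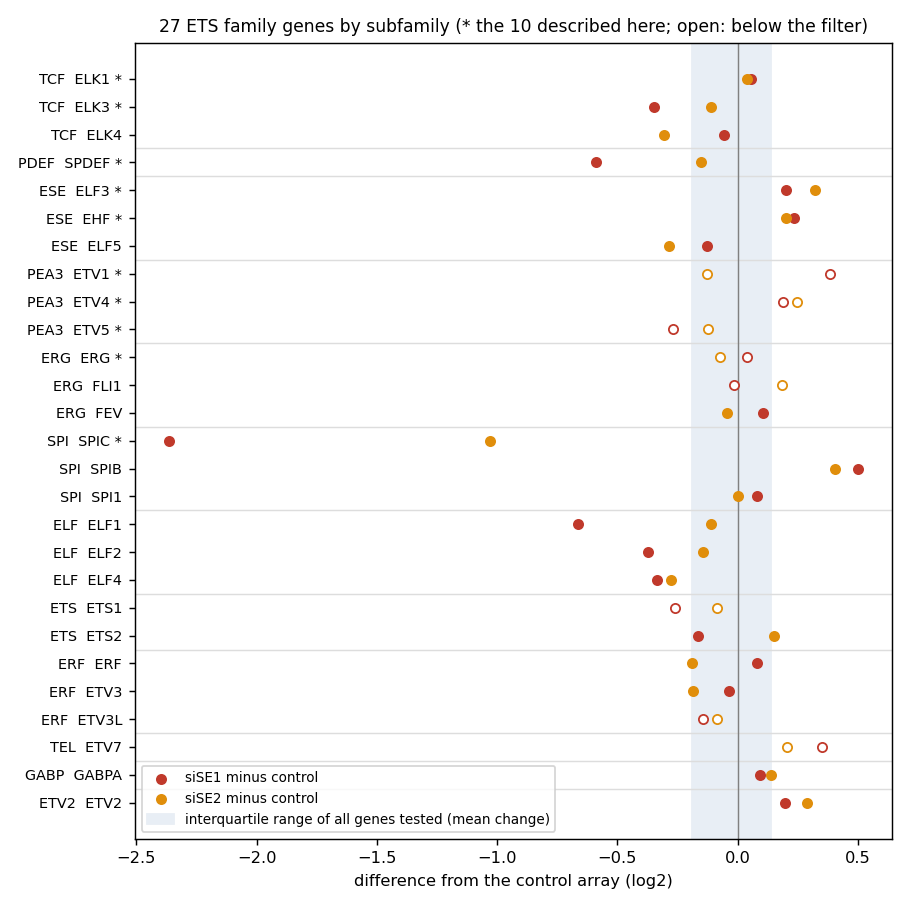
Difference from the control array (log2) with siSE1 and siSE2 for 27 ETS family genes measured by their own probe set, ordered by subfamily, with open points for genes below the filter. The points of SPIC, at -2.36 and -1.03, stand apart from those of the other 26 genes, which lie between -0.66 and 0.50.

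Partners and upstream regulators of the family were described next, by lists. Of 9 tested partners and coactivators 0 rose or fell, with a median of -0.06 (beside -0.02 over all genes) and limma adjusted p from 0.302 to 0.866. RUNX1, a DNA-binding partner of ETS factors, differed by 0.30 ± 0.14 (SE). GABPB2, a partner subunit of GABPA, differed by 0.27 ± 0.16 (0.41 with siSE1 and 0.13 with siSE2). MED23, the Mediator subunit that ELK1 contacts, differed by 0.20 ± 0.14, and MRTFB, an SRF coactivator, by -0.15 ± 0.14. SRF itself read 9.13 with siSE1 and 8.86 with siSE2, against 9.18 on the control array, a difference of -0.19 (outside the rule for named genes). Of 10 tested regulators of the ternary complex and PEA3 groups 0 rose or fell (limma, adjusted p from 0.139 to 0.997), with a median of -0.01. ATXN1, a cofactor of the repressor CIC, which holds PEA3 group genes down, differed by 0.46 ± 0.14, and CIC by 0.18 ± 0.15. COP1, the ubiquitin ligase that marks PEA3 group proteins for degradation, differed by -0.33 ± 0.15, and the ligase scaffold gene CUL4B by 0.18 ± 0.16 (0.06 with siSE1 and 0.29 with siSE2).

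Genes that ERK signalling induces differed from the control in both directions, and 1 passed. Of 9 tested ERK feedback genes 1 rose, 0 fell and 8 did not pass, where 0.248% of all genes rose and 0.714% fell. Their median difference was -0.01. DUSP4, a phosphatase that inactivates ERK, rose, with 6.78 (siSE1) and 6.66 (siSE2), against 5.68 on the control array (1.04 ± 0.15, SE; limma, adjusted p = 0.0223). Both siRNA arrays lay about 1 log2 unit above the control. DUSP5, a nuclear ERK phosphatase, differed by 0.37 ± 0.14 without passing. PHLDA1 and SPRED2, which restrains RAS signalling, differed by -0.47 ± 0.14 and -0.44 ± 0.14 without passing. At an unadjusted limma p of 0.05, 4 of the 9 were higher and 3 lower, where 6.46% and 11.3% of all genes were. With no filter on dim genes DUSP4 did not pass (limma, adjusted p = 0.0927, the highest of 10 alternatives, where the lowest was 0.00941).

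Of 11 tested targets of the ternary complex factors 0 rose or fell (limma, adjusted p from 0.180 to 0.906), with a median of 0.21, beside -0.02 over all genes. By array, the median of these 11 was 0.09 with siSE1 and 0.29 with siSE2. MCL1, a survival gene of the BCL2 family, read 9.15 with siSE1 and 9.18 with siSE2, against 8.76 on the control array (0.41 ± 0.14, SE). IER3 and FOS, immediate early genes, differed by 0.40 ± 0.15 and 0.36 ± 0.16, and CCN1, a matricellular protein gene, by -0.37 ± 0.16. Of 19 listed targets of the PEA3 group and ERG only 7 passed the filter, and 0 of those rose or fell (median 0.01; limma, adjusted p from 0.235 to 0.989). PLA1A, a phospholipase gene, read 5.11 with siSE1 and 5.59 with siSE2, against 5.84 on the control array. VIM, the vimentin gene, differed by -0.25 ± 0.15, HLA-DMB by -0.23 ± 0.14 and TWIST1, a mesenchymal transcription factor gene, by 0.23 ± 0.15. The 12 below the filter included MMP1, MMP3, MMP7, MMP9, MMP13 and MMP14, the matrix metalloproteinase genes, named outside the rule.

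Among secretory epithelial genes linked to SPDEF, ELF3 and EHF, 1 of 16 tested rose, 0 fell and 15 did not pass, where 0.248% of all genes rose and 0.714% fell. At an unadjusted limma p of 0.05, 6 of the 16 were higher and 1 lower, where 6.46% and 11.3% of all genes were. The median was 0.16, beside -0.02 over all genes tested. With the filter at the 50th percentile it was -0.04, beside -0.05 over all genes tested. REG4, which encodes a lectin secreted in the gut, rose, with 6.74 (siSE1) and 7.14 (siSE2), against 5.49 on the control array (1.46 ± 0.18, SE; limma, adjusted p = 0.0207). With no filter REG4 did not pass (limma, adjusted p = 0.0927, the highest of 10 alternatives, where the lowest was 0.00592). CREB3L1, a transcription factor gene of secretory cells, read 6.07 with siSE1 and 5.67 with siSE2, against 5.19 on the control array (0.68 ± 0.18, SE; limma, adjusted p = 0.102). AGR2, a disulfide isomerase gene that SPDEF is known to induce in goblet cells, differed by 0.56 ± 0.16. PIGR, the receptor gene that carries IgA across epithelium, differed by 0.53 ± 0.16. These 4 were named for the size of their differences. Of the 16 tested, 10 lay above the control and 6 below it, KLK3 (-0.39) the lowest.

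Of 8 genes linked to SPIC or to red pulp macrophages 3 were tested, and 0 rose or fell. HMOX1, the haem oxygenase gene, read 8.80 with siSE1 and 8.62 with siSE2, against 7.94 on the control array (0.77 ± 0.15, SE; limma, adjusted p = 0.0513). Over 10 alternatives its limma adjusted p ran from 0.0296, with quantile normalization, to 0.147, with no filter. BACH1, a haem-regulated repressor known to act on SPIC and HMOX1 in mice, read 6.46 with siSE1 and 6.81 with siSE2, against 7.07 on the control array (-0.44 ± 0.17, SE; limma, adjusted p = 0.222). VCAM1, which SPIC is known to activate in mouse macrophages, lay below the filter (also named outside the rule). Of 8 tested genes known to lend their promoters or loci to rearranged ETS genes 0 rose or fell (median -0.14; limma, adjusted p from 0.154 to 0.966). SLC45A3 differed by -0.46 ± 0.15 (SE), HNRNPA2B1 by -0.32 ± 0.14, KLK2 by -0.27 ± 0.16 (-0.13 with siSE1 and -0.41 with siSE2) and FOXA1 by -0.17 ± 0.14.

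**Figure D4:**
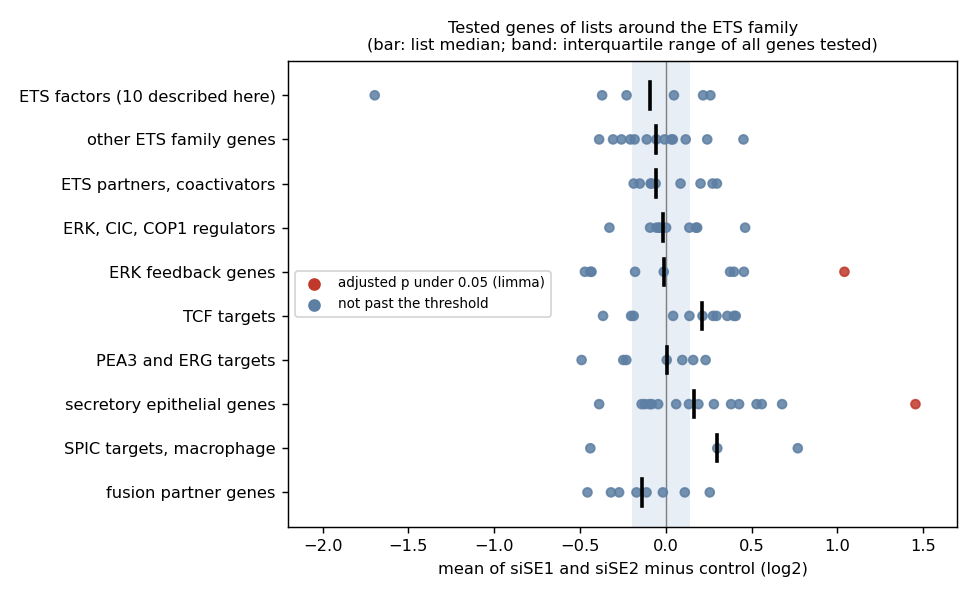
Mean of siSE1 and siSE2 minus control (log2) of the tested genes of each list around the ETS family, with the list median as a bar and the interquartile range of all 12892 genes tested, -0.19 to 0.14, as a band. DUSP4 at 1.04 and REG4 at 1.46 are the genes past the threshold, and SPIC at -1.70 is the lowest point.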

How the data were processed

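The deposited table holds 33297 probe sets on 3 arrays. The submitters' processing notes name Affymetrix Expression Console as the tool the authors used, with no version. The scale is not stated. The deposited values were taken as log2 from their range (1.43 to 13.9) and array medians (5.84 and 5.84 with siRNA, 5.80 control). Neither genome build nor background correction is given in the sources used here. The platform annotation gave 1 gene for 19460 probe sets, several for 1754 and none for 12083, and symbols were updated by gene identifier for 19429. Probe sets of 1 gene were averaged, and 12892 of 18417 genes reached the 30th percentile of mean level. These were fitted with limma 3.58.1 (lmFit, eBayes; R 4.3.3) and adjusted by Benjamini-Hochberg at 0.05. The fit has 1 residual degree of freedom, from the distance between siSE1 and siSE2, and the single control is taken to vary alike. To this eBayes adds a prior of 8.46 degrees of freedom from the variance over all genes tested. For most genes the SE and interval thus rest mostly on that pooled variance, not on the gene's own scatter. SPIC is an exception: its SE of 0.40, against a median of 0.14, rests mostly on its own distance between siSE1 and siSE2 (-1.33). Precision is limited by the number of arrays. The procedure was checked on simulated data, in which all arrays were independent with equal spread. That check cannot show whether the arrays here meet this condition. No set test was run, and lists are described by counts and medians. Some lists share genes, among them IER3, KLK3 and KRT8, so their counts are not independent of each other.

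The members, lists and tests were chosen with earlier results of these data known. Named genes are all 10 members and ELK4, up to 4 genes a list with the largest smaller-of-both change in 1 direction, and the 2 nearest genes of the 3 members that differed most. ELF1, SPI1, SRF, MIPOL1, VCAM1 and the MMP genes are named outside this rule, with their values already known. Alternatives covered 4 normalizations, 1 of them added after seeing the data, the filter, probe set choice, variance priors, thresholds and leaving out each siRNA array. Protein sequences were not used here.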

Additional observations from a re-analysis of the deposited data

Results flagged for a closer look

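ETV6, an ETS repressor gene, was measured only by a probe set that names both ETV6 and INO80D, a chromatin remodeller subunit gene, so no comparison above used it. This probe set read 8.13 with siSE1 and 8.07 with siSE2, against 7.93 on the control array, a mean difference of 0.17 (log2). It drew attention because both siRNA arrays lay above the control in data that no comparison used. The interquartile range of the mean difference over all genes tested was -0.19 to 0.14, so a value of 0.17 is not unusual in size. The difference was not tested, and the signal cannot be assigned to either gene.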

How the results depend on the processing

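None of the 6 tested ETS factors changed direction under any of the normalizations, filters, priors or left-out arrays that were run. No paired analysis was possible because the control group has 1 array and the groups share fewer than 2 replicate numbers. SPIC passed with array medians equalised over genes, an alternative added after seeing the data (-1.69; limma, adjusted p = 0.0429), and at a threshold of 0.1 (-1.70), so that 1 member was called in each. Without siSE1 the SPIC difference was -1.03 and without siSE2 -2.36. SPIC was not tested with the filter at the 50th percentile, which left 0 members at least 1.5-fold from the control on both arrays. The untested ETV4 difference moved to 0.15 with quantile normalization and 0.14 with cyclic loess. Some list medians moved as well, that of the secretory epithelial genes to -0.04 with the filter at the 50th percentile. For the ERK feedback genes the median was -0.18 with that filter and 0.10 with no filter. Of all genes, those called higher numbered 63 with quantile normalization, 21 with equal array medians over probe sets, 79 with equal medians over genes, 52 with a trend in the prior, 15 with the filter at the 50th percentile, 1 with no filter and 143 at a threshold of 0.1. Those called lower numbered 185 with equal medians over genes, 20 with the filter at the 50th percentile, 0 with no filter and 364 at a threshold of 0.1. By size on both siRNA arrays, 550 genes were higher and 1034 lower at a fold limit below 1.5, and 11 and 13 at 2-fold. The causes were not tested.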
